A study of Monodelphis domestica and Mus musculus with 26 samples.

Results

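The genes described here are 6 carbonic anhydrases, CA2, CA3, CA4, CA9, CA12 and CA14, measured in the testis of the mouse and of the gray short-tailed opossum (Monodelphis domestica), a marsupial. They were taken by gene symbol, and the set was selected on a measured value, the TPM of CA3 in the bulk libraries. Mouse tables write the same genes as Car2, Car3, Car4, Car9, Car12 and Car14. All 6 are among the 32532 genes of the mouse single-cell tables. CA3, CA9, CA12 and CA14 (4 of 6) are named among the 32251 genes of the opossum single-cell tables and the 34985 genes of the opossum bulk tables. Opossum CA2 and CA4 were not analysed here. CA3 was the most abundant transcript of the opossum testis in 4 of 4 libraries at 3 months and in 2 of 3 at 4 months, and its level at those ages is given as a description without a test.

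Carbonic anhydrases interconvert carbon dioxide and water with bicarbonate and protons, and so set how fast pH and bicarbonate respond inside and around a cell. CA2 and CA3 are cytosolic: CA2 is among the fastest enzymes known, while CA3 is a slow form best known from skeletal muscle, fat and liver. CA4 is held at the outer membrane surface by a lipid anchor, and CA9, CA12 and CA14 are membrane proteins with their catalytic domain outside the cell. In the male tract, bicarbonate activates the soluble adenylyl cyclase of sperm (ADCY10), and carbonic anhydrases are also studied there for fluid acidification.

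Single-cell RNA libraries were made from whole dissociated testis of adult C57BL6/J mice (3 libraries, animals of 8 to 16 weeks) and of adult opossums (3 libraries). Bulk RNA libraries of opossum testis came from animals of 1 month (2 libraries), 2 months (4), 3 months (4), 4 months (3) and from adults (7). Of the 20 bulk libraries, 16 were prepared from polyadenylated RNA and 4 by depletion of ribosomal RNA, namely replicates 2, 3 and 4 at 2 months and adult replicate 2. The labels state no treatment or genetic change for any group. The labels do not state whether replicates came from separate animals, so the p-values measure only the spread between these libraries.

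The single-cell libraries held 22710048 to 65263953 unique molecular identifiers (UMIs, each standing for 1 captured RNA molecule) over 10861 to 13451 barcodes. After the filters described with the methods, 7487, 7209 and 8715 mouse cells and 5127, 7476 and 7406 opossum cells remained, with medians of 1621 to 4488 UMIs. Mouse replicates 1 and 2 shared 198 barcodes, 1.82% of the smaller library, and each shared at most 2 with any other library. Mouse replicate 3 and the 3 opossum libraries shared 30 to 43 barcodes in each pair. The cause of this split was not tested. Clusters were named from marker genes, with every carbonic anhydrase left out of the clustering, and a class is called after a cell type (Leydig-like) only in that sense. Levels per class are given as CPM, the UMIs of a gene as a part of all UMIs of that class in 1 library, scaled to a fixed total. These 3′ tag counts are not scaled by gene length. Bulk levels are given as TPM, which are scaled by transcript length and add up to the same fixed total in every library. The bulk libraries had 2.90 to 7.12 gigabases aligned to genes, and mitochondrial genes took 3.15 to 39.9% of TPM. Genes of 7SL RNA took 31.0%, 31.9% and 42.6% of TPM in the rRNA-depleted replicates 2, 3 and 4 of 2 months. Their part was 44.5% in adult replicate 2 and at most 0.0249% in the polyA libraries.

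In mouse (GRCm39), Car3 lies at chr3:14928489-14937595 on the plus strand, between Car1 (chr3:14831269-14873459, minus strand) and Car2 (chr3:14951317-14967568, plus strand), with Car13 beyond Car1 at chr3:14706783-14728077. The opossum tables place CA3 at chr3:145477971-145498831 on the minus strand, near CA1 (chr3:145525967-145609184) and CA13 (chr3:145718805-145810503). CA12 is at chr1:148705647-148787334, CA9 at chr6:122703239-122711132 and CA14 at chr2:495474206-495481314 in the opossum tables, whose build is named only for replicate 3 of the single-cell libraries (ASM229v1). These are whole-gene spans, and reads were not assigned to exons or UTRs here.

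In opossum, CA3 was a transcript of the Leydig-like and stromal-like cells, and in Leydig-like cells, the steroid-producing cells between the tubules, it stood first among all genes in every library. Its level there was 68259, 86221 and 45934 CPM in replicates 1, 2 and 3 (66805 ± 20183, SD, n = 3). In peritubular or stromal-like cells, the muscle-like and fibroblast cells around the tubules, it reached 38553, 39626 and 25203 CPM (34461 ± 8035, SD, n = 3), ranking 2, 1 and 2 among all genes. The lowest Leydig-like value lay above the highest stromal-like value, so these groups did not overlap. The median Leydig-like cell gave 6.10%, 8.45% and 4.73% of its UMIs to CA3 in the 3 libraries, and the median stromal-like cell 3.26%, 3.33% and 2.29%. Over all kept cells CA3 made 12790, 16402 and 14695 CPM, ranking 1, 2 and 1. Leydig-like cells supplied 51.5%, 83.0% and 65.1% of all CA3 UMIs while forming 16.0% ± 5.45 (SD, n = 3) of the cells, and stromal-like cells supplied 33.9%, 13.8% and 26.2%.

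All other opossum classes held less CA3 and differed more between libraries. Sertoli-like cells, the nurse cells inside the tubules, had 4147, 2364 and 5137 CPM. Elongating spermatid-like cells had 3538, 122 and 1227 CPM, with replicate 2 far below the others. Round spermatid-like cells had 540, 371 and 2661 CPM, spermatocyte-like cells 458, 794 and 1981, and spermatogonia-like cells 65.2, 121 and 1123. Endothelial-like cells had 590, 774 and 3849 CPM and immune-like cells 941, 435 and 1937. Replicate 3 was the highest in all of these classes except elongating spermatid-like cells, and it was the lowest in Leydig-like and stromal-like cells. A CA3 UMI was seen in 99.9 to 100% of Leydig-like cells at median depths of 1490 to 4380 UMIs. In spermatogonia-like cells, taken as a type that should lack the gene, the share was 6.50%, 12.1% and 46.4% at median depths of 11385, 5332 and 2197 UMIs. This class depended on the clustering: at Leiden resolution 2 it held 215 cells in place of 824, with CA3 at 0, 29.9 and 157 CPM.

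**Figure D1:**
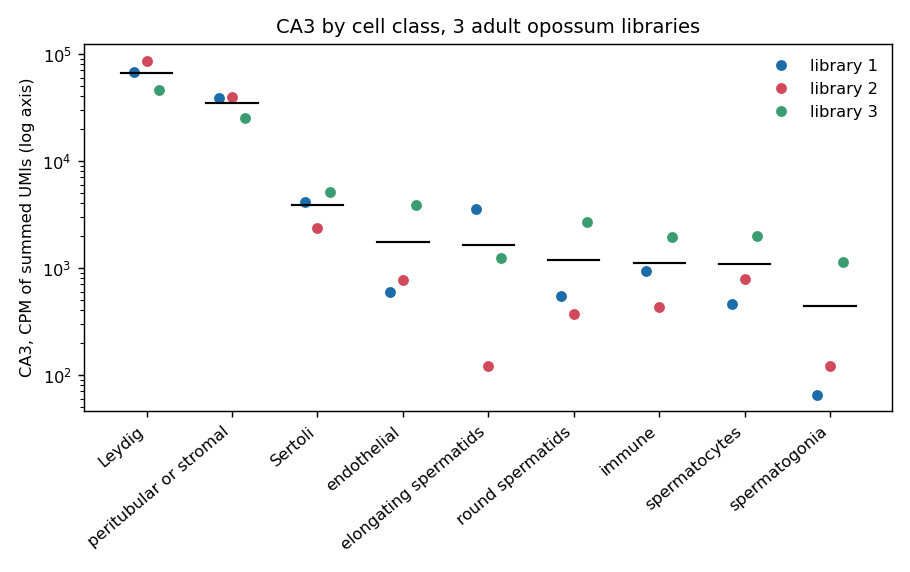
CA3 level in 9 opossum cell classes, as CPM on a log axis; each point is 1 of 3 libraries and the bar is their mean. Leydig-like and stromal-like cells lie between 25203 and 86221 CPM, and the highest value of any other class is 5137 CPM.

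The marker genes of Leydig cells give a measure of Leydig RNA in each class to set beside CA3. CA3 UMIs per UMI of the 10 Leydig markers found in opossum were 24.8, 19.5 and 9.50 in Leydig-like cells. In stromal-like cells the ratio was 83.3, 123 and 57.6, above the Leydig-like range in every library. It was 7.20, 3.53 and 8.12 in Sertoli-like cells and 28.9, 3.02 and 19.9 in elongating spermatid-like cells. In spermatogonia-like cells it was 0.178, 0.268 and 2.87. The part of free RNA in the levels outside the first-ranked classes was not tested.

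Within the Leydig-like class, CA3 differed between clusters. Cluster 2, the largest with 1907 cells, had 79060, 90027 and 61719 CPM, and cluster 14, with 618 cells and none of its own markers among its leading genes, had 70185, 66016 and 56004. Cluster 10, with 776 cells led by IDO2, UGT2A1 and the prolactin receptor PRLR, had 7960, 4551 and 8982 CPM, below each of the other two clusters in every library. Among stromal-like cells, cluster 0, with fibroblast genes such as DCN and COL3A1 in the lead, had 43073, 47272 and 29154 CPM. Cluster 12, led by the smooth muscle genes ACTG2, TAGLN and MYH11, had 16850, 16912 and 12513 CPM. Cluster 0 lay above cluster 12 in each library.

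Clusters of the elongating spermatid-like class differed as well. Cluster 6 had 10797, 3144 and 10520 CPM, cluster 13 had 775, 188 and 1860, and cluster 16, the cells with the most UMIs per cell of their libraries (a median of 8.61 times the library's), had 52.7, 0 and 0. The cells of cluster 6 were shallow, with a median of 0.614 times that of their library. In Sertoli-like cells, cluster 3 had 5641, 2790 and 7574 CPM, cluster 1 had 3819, 2813 and 5039, and cluster 19 had 1320, 619 and 1329.

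**Figure D2:**
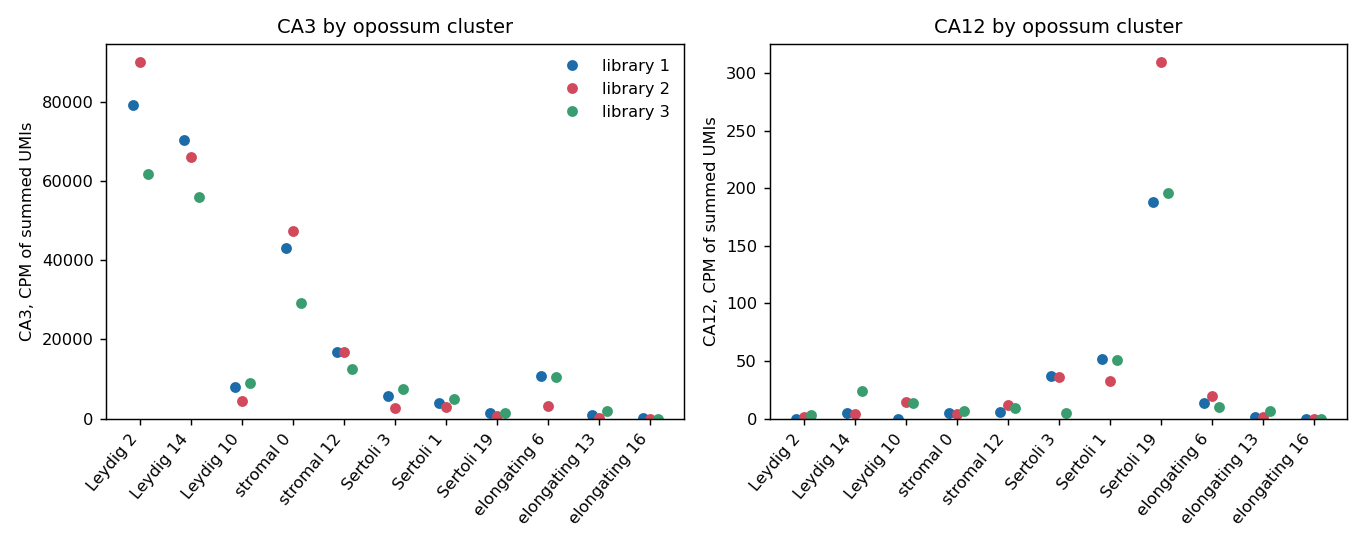
CA3 and CA12 in the opossum clusters of the Leydig-like, stromal-like, Sertoli-like and elongating spermatid-like classes, as CPM; each point is 1 of 3 libraries. CA3 is high in clusters 2 and 14 and lower in cluster 10 of the Leydig-like class, and CA12 is highest in Sertoli-like cluster 19, at 188 to 310 CPM.

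Skeletal muscle and fat, where CA3 is classically abundant, were followed through their own markers. In the 20 bulk opossum libraries CKM, the muscle creatine kinase, was at 0 TPM in all 20, MYH4 was at 0 in 13 and ACTA1 reached at most 4.14 TPM. The 7 muscle markers measured summed to 4.64 to 952 TPM, with MYL1 alone at 0.970 to 944 TPM (median 309). ADIPOQ, which defines fat cells, was at 0 in 13 of 20 libraries and at most 0.200 TPM in the others, and LEP was at 0 in 11 of 20. Other genes of the fat list were present: DGAT2, an enzyme of triglyceride synthesis, was at 3.18 to 95.8 TPM (median 54.4), and LPL, the lipoprotein lipase, at 0 to 139.7 TPM (median 4.90). The 7 fat markers summed to 16.96 to 145 TPM, with the highest sums in the 1-month libraries. The part of muscle or fat RNA in the bulk level of CA3 was not tested. In Leydig-like cells the muscle markers summed to 26.8 to 39.0 CPM and the fat markers to 14.0 to 31.3 CPM. The muscle markers were highest in opossum spermatids, at 174 to 488 CPM in round and 264 to 439 CPM in elongating spermatid-like cells.

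CA3 stood for nearly all carbonic anhydrase RNA of the measured members in the opossum classes of the main clustering. It made 99.99% ± 0.01 (SD, n = 3) of their UMIs in Leydig-like cells, 97.8% ± 1.32 in Sertoli-like cells, and 94.7 to 99.97% on average in the other classes. The lowest mean, 94.7%, was that of spermatogonia-like cells, and it depended on the clustering. At Leiden resolution 2 this class had 0, 29.9 and 157 CPM of CA3 against 5.06, 15.5 and 1.31 CPM of CA9. Opossum CA2 and CA4 are not part of these shares. In the named mouse classes the main member was Car2, which made 99.5% ± 0.17 of the members' UMIs in elongating spermatid-like cells and 99.2% ± 0.36 in Sertoli-like cells. In Leydig-like cells its share was 94.8%, 70.4% and 68.7%, on only 38.0, 26.0 and 2.92 members' UMIs. An endothelial-like class of finer clustering (Leiden resolution 2) had more Car4 than Car2. The levels there were 1429 and 756 against 232 and 169 CPM in replicates 1 and 2.

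Mouse Car2 was highest in elongating spermatid-like cells, the haploid cells that are reshaping into sperm. It reached 841, 982 and 817 CPM there (880 ± 88.8, SD, n = 3), ranking 193, 171 and 201 among all genes. Sertoli-like cells had 358, 423 and 162 CPM (314 ± 136), below the elongating range in every library. With a minimum of 2000 UMIs per cell the Sertoli-like mean was 519 CPM. Stromal-like cells had 143, 154 and 63.7 CPM, spermatogonia-like cells 62.0, 52.6 and 4.03, and Leydig-like cells 43.4, 16.8 and 5.46. Round spermatid-like cells had 41.6, 37.2 and 15.3 CPM and spermatocyte-like cells 10.8, 6.24 and 6.86. Immune-like cells, of which replicate 3 had fewer than 20, had 108 and 315 CPM in the other two libraries. Stromal-like and immune-like values overlapped, and every spermatogonia-like value lay below both. Elongating spermatid-like cells supplied 83.3%, 88.7% and 95.1% of the Car2 UMIs of their libraries while forming 22.0% ± 6.65 of the cells.

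Within the elongating class, Car2 was lowest in cluster 4, at 263, 398 and 229 CPM, higher in cluster 5, at 762, 969 and 840, and highest in cluster 1, at 1179, 1281 and 1278, whose leading genes include the protamines Prm1 and Prm2. Elongating-spermatid markers (35 found) were set beside Car2 in every class. Car2 UMIs per 1000 marker UMIs were 3.54, 4.44 and 3.47 in elongating spermatid-like cells and 3.53, 4.83 and 4.28 in Sertoli-like cells, which overlap. The ratio was 4.19, 3.57 and 3.33 in Leydig-like, 5.25, 5.75 and 5.17 in stromal-like and 5.39, 4.28 and 4.34 in spermatogonia-like cells. It was lower in round spermatid-like cells, at 1.16, 1.29 and 0.715, and in spermatocyte-like cells, at 0.746, 0.445 and 0.863. These markers made 101408, 87658 and 37814 CPM of the Sertoli-like class itself. The part of spermatid RNA in the Car2 level of Sertoli-like and other somatic classes was not tested.

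**Figure D3:**
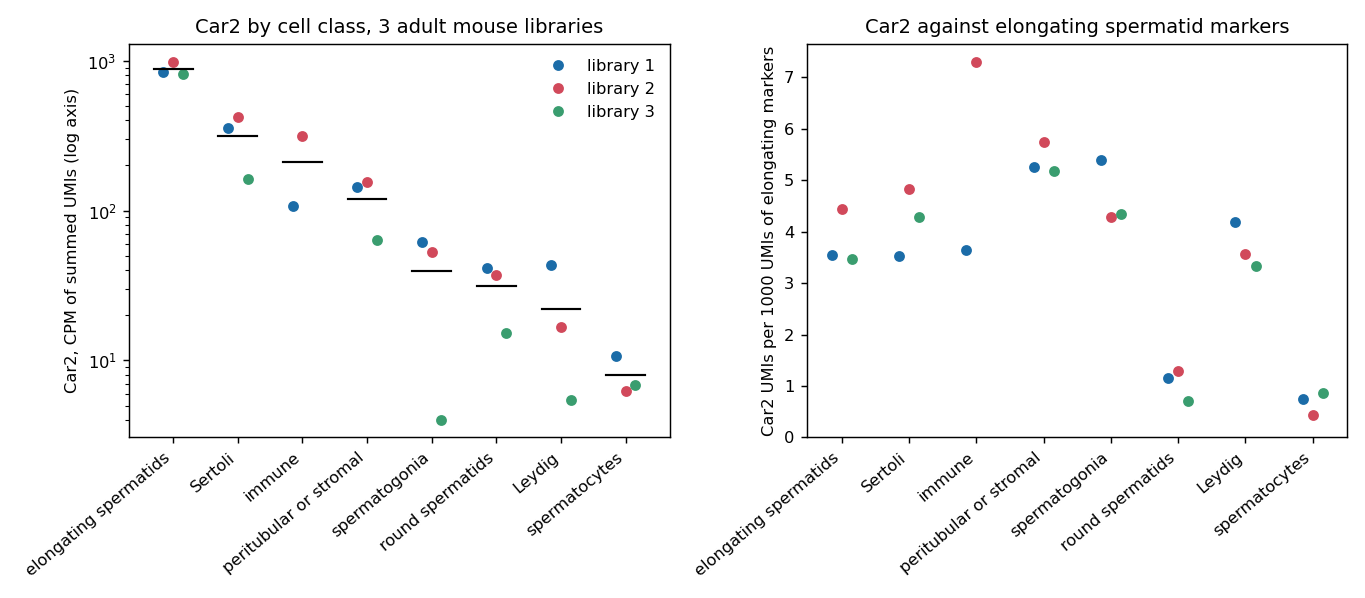
Mouse Car2 by cell class, as CPM on a log axis, and as Car2 UMIs per 1000 elongating-spermatid marker UMIs; each point is 1 library. Elongating spermatid-like cells lead by CPM (817 to 982), while on the marker scale they (3.47 to 4.44) overlap with Sertoli-like cells (3.53 to 4.83).

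The other cytosolic member, Car3, was nearly absent from the mouse cells. No UMI was counted in 7 of the 8 classes tested between species, and 2 were counted in elongating spermatid-like cells. Taking 3 counts over the group as the floor for a count of 0, the mouse Leydig-like class could have held up to 1.31 CPM, against 68748 CPM in opossum over the pooled libraries. Opossum CA3 was thus at least 52456-fold higher in Leydig-like, at least 8599-fold in stromal-like and at least 2532-fold in Sertoli-like cells. These bounds cover counting error only.

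Species were compared class by class with edgeR's quasi-likelihood test on summed counts of 10762 genes matched by symbol, and a gene was called at an adjusted p under 0.05 with a difference of at least 1 on the log2 scale. Each fitted difference is scaled over the matched genes, and so departs from the ratio of the CPM values given beside it. CA3 was called higher in opossum in all 8 classes. It had no mouse UMI in 7 of them, so it passed the low-count filter through the opossum libraries alone and its direction was fixed before the test; the bounds above describe its size. The call in immune-like cells (adjusted p = 0.00866) had an adjusted p of 0.0713 without mouse replicate 1. Mouse has only 2 libraries with enough immune-like cells, both at 0, so that fit has a single mouse library, which is assumed to vary like the opossum ones. In spermatogonia-like cells CA3 was at 0, 29.9 and 157 CPM with finer clustering, and neither there nor with a minimum of 2000 UMIs per cell was it among the genes tested. The species differ in genome, annotation and library, and these cannot be told apart from the species itself.

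Many genes differ between the species in these libraries, so calls are common. Of all genes tested, 58.9% were called in Leydig-like cells (30.2% higher in opossum and 28.7% lower), and the 1 member tested was called. In stromal-like cells 53.0% were called (28.2% higher, 24.8% lower) and the 1 member tested, in Sertoli-like cells 42.6% (22.2% higher, 20.4% lower) and 2 of 2 members. In spermatogonia-like cells 58.3% were called (26.9% higher, 31.4% lower) and 1 of 1 member, in spermatocyte-like cells 66.5% (32.4% higher, 34.1% lower) and 3 of 3. In round spermatid-like cells 69.6% were called (33.7% higher, 35.9% lower) and 3 of 3 members, in elongating spermatid-like cells 70.5% (35.1% higher, 35.3% lower) and 2 of 3. In immune-like cells 23.8% were called (14.9% higher, 8.90% lower) and the 1 member tested. The called members were higher in opossum, a direction that the filter largely fixed: CA3, CA9 and CA12 were at or near 0 in most mouse classes, and Car2 and Car4 were not matched to an opossum gene by symbol. The counts of members are therefore no support for a difference in the set. Members left out of a class had too few counts or were not matched by symbol.

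CA12, a membrane form with its active site outside the cell, was the second member of opossum Sertoli-like cells. It was found there at 56.3, 89.5 and 73.9 CPM (73.2 ± 16.6, SD, n = 3) and at no more than 7.06 CPM in any other class. Sertoli-like cells supplied 86.7%, 82.6% and 26.5% of CA12 UMIs, and replicate 3, with 268 Sertoli-like cells against 2044 and 1499, gave the low share. Within the class the small cluster 19 had the most CA12, at 188, 310 and 196 CPM, against 51.4, 32.8 and 50.7 in cluster 1 and 37.3, 35.9 and 4.5 in cluster 3. The cluster with the most CA12 was thus the one with the least CA3.

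Mouse Sertoli-like cells had 0.790, 0 and 0 CPM of Car12. Opossum CA12 was called higher there, having passed the low-count filter through opossum. The same holds of round spermatid-like cells, at 3.08 to 7.06 CPM in opossum against 0.247 to 0.362 in mouse, and of spermatocyte-like cells, at 2.54 to 5.46 against 0.213 to 0.717 CPM. In elongating spermatid-like cells the fitted log2 difference was 0.12 with an adjusted p of 0.893 (edgeR), which was not called.

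CA9, the membrane form known for its induction by low oxygen, was a low transcript of opossum germ cells. Elongating spermatid-like cells had 13.1, 7.26 and 17.4 CPM (12.6 ± 5.09, SD, n = 3) and spermatocyte-like cells 7.72, 7.30 and 5.59 CPM, ranges that overlap. Elongating spermatid-like cells supplied 48.6%, 43.5% and 65.3% of CA9 UMIs. By cluster, CA9 reached 19.5, 12.6 and 19.8 CPM in cluster 16, the deepest spermatid cluster, which had almost no CA3. Spermatocyte-like cluster 11 had 14.5, 18.8 and 8.6 CPM. Mouse Car9 was at most 0.198 CPM in germ cells. The opossum level was called higher in elongating spermatid-like, spermatocyte-like and round spermatid-like cells, where CA9 passed the low-count filter through opossum, so no fitted fold is given.

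CA4 and CA14 were found in vessel-type and stromal-type clusters with few cells. Mouse Car4 was found in cluster 17, which mixes endothelial genes such as Cldn5 with smooth muscle genes such as Acta2 and stayed unnamed. The 355 cells of this cluster had 874, 651 and 2.7 CPM of Car4 in the 3 libraries, so replicate 3 stood apart. With finer clustering (Leiden resolution 2) an endothelial-like class of 51 and 65 cells in replicates 1 and 2 had 1429 and 756 CPM, and replicate 3 had 9 such cells. In the named mouse classes Car4 was at most 5.20 CPM. Car14 was instead highest in replicate 3, with 63.5, 5.8 and 171 CPM in cluster 17. With finer clustering it fell to the stromal-like class, at 43.2, 2.62 and 146 CPM. Opossum CA14 was highest in endothelial-like cells, at 5.46, 10.3 and 1.25 CPM, and at most 1.38 CPM elsewhere. Neither gene was tested between species: opossum CA4 was not analysed, and CA14 had too few counts to pass the filter in any class. No endothelial-like class was named in mouse at the main setting. With finer clustering such a class could be tested, and CA3 was the 1 member that passed the filter in it.

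The other members of the family were read from a fixed list of 10, of which all 10 are named in mouse and 7 in opossum. CA13, a cytosolic form encoded near CA3, was the most widespread of these in opossum. It had 200, 74.0 and 183 CPM in round spermatid-like cells, 142, 123 and 128 in spermatogonia-like cells and 90.6, 37.6 and 55.9 in immune-like cells, while mouse Car13 was at most 4.61 CPM in every class. CA13 was called higher in opossum in 7 of 8 classes and was not tested in Sertoli-like cells. Mouse Car13 was at or near 0 in these classes, so CA13 passed the low-count filter through opossum and its direction was fixed before the test. The call in immune-like cells (adjusted p = 0.0266, edgeR) was lost without mouse replicate 1 (0.169) or 2 (0.0647) or opossum replicate 3 (0.0572), where each of the first 2 fits has a single mouse library and Car13 was at 0 in both. CA1, the red-cell cytosolic form, was at 60.4, 74.8 and 149 CPM in Sertoli-like cells against 19.3, 4.45 and 4.12 in mouse, a difference of 2.60 ± 0.77 (adjusted p = 0.0193; 0.0511 without mouse replicate 2 and 0.0518 without opossum replicate 3). The sum of red blood cell markers was also high in this class. The 3 found in opossum summed to 372, 362 and 175 CPM, against at most 23.2 CPM in any other opossum class. The 9 found in mouse summed to 1188, 3895 and 461 CPM. In the bulk opossum libraries ALAS2 of this list was at 31.2 to 408 TPM, while SLC4A1 and EPB42 reached at most 1.91 and 1.17 TPM. The class sums are not given by gene here. The part of red blood cell RNA in the CA1 level was not tested. CA5B, a mitochondrial form, was higher in opossum spermatocyte-like cells (34.6, 26.8 and 30.4 against 0.174, 0.199 and 0.595 CPM) and lower in Leydig-like cells (1.92 to 3.18 against 16.4 to 26.5 CPM), where it passed the filter mainly through mouse. CA8, which lacks catalytic activity, was at 39.7, 15.3 and 17.9 CPM in opossum stromal-like cells.

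Counted over the list, family genes were called higher and lower in 2 and 1 of 3 tested in spermatogonia-like cells, 4 and 1 of 5 in spermatocyte-like cells, and 2 and 1 of 3 in Leydig-like cells. None was called lower among the 3 tested in round spermatid-like cells (2 higher), the 2 in elongating spermatid-like cells (2), the 3 in stromal-like cells (3), the 1 in Sertoli-like cells (1) and the 1 in immune-like cells (1). Both directions thus occurred within the family, and with so few genes these counts are a description beside the shares of all genes given above.

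**Figure D4:**
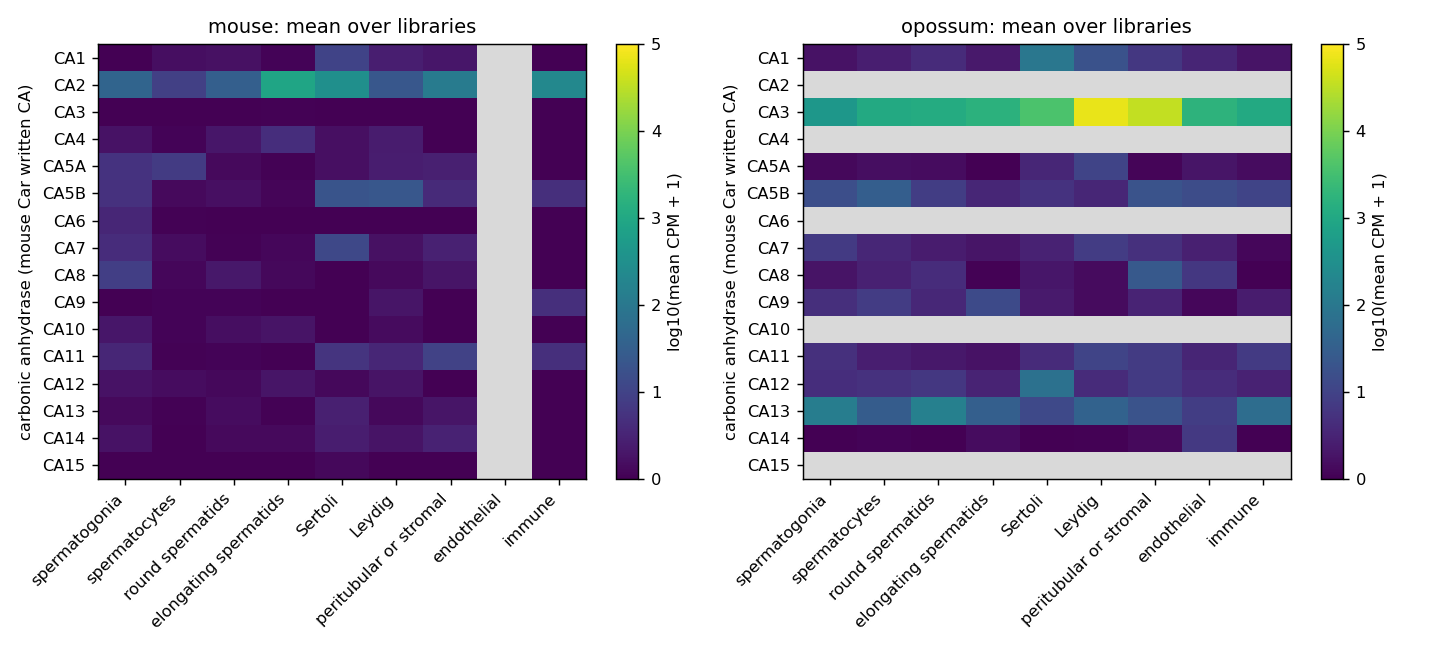
Mean level of 16 carbonic anhydrases in 9 cell classes of each species, as log10(mean CPM + 1) over the libraries; grey marks genes not analysed here or a class not named. The brightest opossum cells of the map are CA3 in Leydig-like (66805 CPM) and stromal-like (34461 CPM) cells, and the brightest mouse cell is Car2 in elongating spermatid-like cells (880 CPM).

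Carbonic anhydrases work with carriers of bicarbonate, protons and lactate, read here from a list of 40 genes (39 named in mouse, 33 in opossum). In spermatocyte-like cells 14 of 25 tested were called higher in opossum and 4 lower, with a median log2 difference of 2.17 over the list and -0.07 over all genes, of which 32.4% were called higher and 34.1% lower. In round spermatid-like cells 10 of 22 were higher and 6 lower, in elongating spermatid-like cells 8 and 6 of 17, and in spermatogonia-like cells 6 and 6 of 19. In Leydig-like cells 4 of 10 were higher and 1 lower, in stromal-like cells 4 and 2 of 12, in Sertoli-like cells 2 and 1 of 11, and in immune-like cells 2 and 2 of 12. The list median was 0.01 in Leydig-like, 0.08 in elongating spermatid-like, 0.29 in stromal-like and 0.33 in Sertoli-like cells, against 0.11, -0.03, 0.17 and 0.18 over all genes. It was 0.58 in spermatogonia-like, 0.87 in round spermatid-like and 1.26 in immune-like cells, against -0.10, -0.17 and 0.47. The shares of all genes called stand above for each class (33.7% higher and 35.9% lower in round, 35.1% and 35.3% in elongating spermatid-like cells), and nothing is read from counts near them. Mouse replicate 3 decided the count in Sertoli-like cells, where 10 family and transport genes were called without it and 4 with it.

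SLC16A7, a monocarboxylate (lactate and pyruvate) transporter, was the gene of the list called lower in most classes. It was lower in opossum in 7 of 8 classes, with 528, 588 and 547 CPM in mouse round spermatid-like cells and 0 CPM in all 3 opossum libraries. SLC16A3, another monocarboxylate transporter, was lower in opossum Leydig-like cells, at 1.46, 0.591 and 0 against 30.1, 36.7 and 32.5 CPM. The chloride and bicarbonate channel CFTR was lower in opossum round spermatid-like cells, at 3.06, 1.77 and 3.28 against 37.1, 43.3 and 246 CPM (log2 difference -6.07 ± 0.80, adjusted p = 5.33e-05, edgeR). SLC4A3, a chloride-bicarbonate exchanger, was higher in opossum elongating spermatid-like cells, at 109.8, 78.7 and 70.4 against 0, 0 and 0.263 CPM. SLC16A7, SLC16A3 and SLC4A3 were at or near 0 in 1 species in these cells and passed the filter through the other, so no fitted fold is given for them.

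In the classes where CA3 was highest, list genes were called about as often as all genes: 4 higher and 1 lower of 10 against 58.9% of all genes in Leydig-like cells, and 4 and 2 of 12 against 53.0% in stromal-like cells. The called genes are given for their values only. SLC4A2, a chloride-bicarbonate exchanger, was at 36.6, 52.4 and 38.0 CPM in opossum Leydig-like cells against 13.9, 5.57 and 1.07 in mouse. SLC9A9, a sodium-proton exchanger of endosomes, was at 21.7, 18.2 and 57.4 against 2.34, 1.56 and 2.66 CPM in the same cells. SLC4A4, a sodium-bicarbonate cotransporter, was at 66.5, 70.7 and 65.7 CPM in opossum stromal-like cells against 2.76, 2.35 and 10.8 in mouse. In Sertoli-like cells SLC4A5, of the same family, was at 124, 179 and 165 against 6.52, 4.61 and 9.53 CPM. Groups did not overlap for any of these 4 genes. They were named because they were called, and the share of all genes without overlap was not computed. All 4 were called higher in opossum, but the low mouse values rest on few UMIs and the genes passed the filter mainly through opossum, so no fitted fold is given.

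The bulk libraries carried CA3 through the ages of the opossum. It was at 11121 and 8684 TPM at 1 month, and at 18806, 7972, 7642 and 2843 TPM at 2 months, where the first value is the only polyA library of that age. At 3 months it was at 10532, 11916, 10171 and 11253 TPM, and at 4 months at 36371, 12521 and 38114. The 7 adult libraries ran from 6630 to 37694 TPM with a median of 9144. CA3 made up 0.284 to 3.81% of a library's TPM. All 3 libraries of 4 months lay above all libraries of 1 and 3 months. The 2-month and adult ranges overlapped those of every other age. The level of CA3 at 3 and 4 months was part of the choice of genes, so this order is a description only. The share of all genes separated in this way was not computed.

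By rank, CA3 had rank 3 at 1 month in both libraries, ranks 4 to 18 at 2 months, and was first in 4 of 4 libraries at 3 months and first in 2 of 3 at 4 months. In 4-month replicate 2 it ranked 8, behind genes led by the mitochondrial COX1. Among adults it was first in 1 of 7, with a median rank of 4. TPM was also rescaled without mitochondrial and 7SL RNA genes, a scaling chosen after seeing the data. CA3 was then first in 3 of 3 libraries at 4 months and in 4 of 7 adults. At 2 months it had ranks 2 to 6 on that scale, with 23406, 13229, 13128 and 6171 TPM.

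Where its values had no part in the choice of genes, CA3 was tested with limma on log2(TPM + 1), with library kind as a term. From 1 to 2 months the difference was 0.45 ± 0.76 (SE, adjusted p = 0.764) and from 1 month to adult 0.42 ± 0.59 (adjusted p = 0.557), so neither was called. As a description, the fitted difference was -0.29 from 2 to 3 months (0.45 without 2-month replicate 1 and 0.54 without the term for library kind), 1.24 from 3 to 4 months and -0.98 from 4 months to adult. In bulk RNA, fewer cells of a type and less RNA per cell cannot be told apart. The 10 Leydig markers summed to 798 and 807 TPM at 1 month, 605 to 1460 at 2 months, 639 to 747 at 3 months, 621 to 1839 at 4 months and 497 to 1131 in adults.

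Set against those markers, CA3 gave 13.9 and 10.8 TPM per marker TPM at 1 month and 12.9, 13.2, 11.5 and 3.51 at 2 months. The ratio was 15.6, 16.0, 15.1 and 17.6 at 3 months, 19.8, 20.2 and 35.1 at 4 months, and 13.3 to 33.3 in adults. All 3-month and 4-month libraries lay above every 1-month and 2-month library on this scale, and adults overlapped both. CA3 is part of the rule for 3 and 4 months, so no test was made.

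CA12 rose between 1 and 2 months. It was at 8.06 and 8.95 TPM at 1 month and at 94.2, 96.2, 106 and 58.5 TPM at 2 months, with no overlap. The share of all genes without overlap between these ages was not computed. CA12 was at 46.5, 57.4, 50.2 and 63.6 TPM at 3 months and at 84.8, 41.6 and 4.52 at 4 months. In adults it ran from 17.3 to 109 TPM (median 64.2, n = 7). The fitted rise was 3.44 ± 0.98 from 1 to 2 months (adjusted p = 0.0289, limma) and 2.54 ± 0.75 from 1 month to adult (adjusted p = 0.0102). The first call was lost in polyA libraries alone (adjusted p = 0.149), without 1-month replicate 1 (0.149) or replicate 2 (0.139), without 2-month replicate 1 (0.126) and without adult replicate 2 (0.114). The second was lost without 1-month replicate 1 or replicate 2. Both calls were also lost with replicate number as a block, though the labels do not state that these numbers pair libraries. The 10 Sertoli markers were also higher at 2 months: they summed to 110 and 111 TPM at 1 month and to 451, 186, 260 and 252 at 2 months. They summed to 129, 192, 189 and 180 TPM at 3 months, to 274, 156 and 54.8 at 4 months and to 46.5 to 253 in adults. Their part in the rise was not tested. CA12 per Sertoli-marker TPM was 0.0734 and 0.0809 at 1 month, both in polyA libraries. At 2 months it was 0.209 in the polyA library and 0.517, 0.409 and 0.232 in the rRNA-depleted ones. The ratio was 0.361, 0.299, 0.265 and 0.353 at 3 months. At 4 months it was 0.309, 0.267 and 0.0825, and in adults 0.237 to 0.608.

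CA9 was low at every age, at 0.877 and 0.789 TPM at 1 month, 0.594 to 0.892 at 2 months and 2.12 to 3.39 at 3 months. All 4 libraries of 3 months lay above all 6 younger ones, though CA9 was not called from 2 to 3 months (limma). Of all genes tested, 23.0% were called in that contrast, and the share separated in this way was not computed. Markers of the cells with the most CA9 were also higher at 3 months than at the younger ages. The 16 elongating-spermatid markers went from at most 868 TPM in the younger libraries to 6577 or more at 3 months. The 27 spermatocyte markers went from at most 2052 to 5186 TPM or more. Their part in the CA9 level was not tested. At 4 months CA9 was at 2.66, 0.521 and 0 TPM, and in adults from 0.568 to 3.92 (median 3.22). The elongating-spermatid markers did not fall with it at 4 months, at 9388, 14176 and 15127 TPM. Spermatocyte markers were at 2763, 3667 and 5023 TPM in the same libraries. The difference of CA9 from 1 month to adult was 0.97 ± 0.40 (adjusted p = 0.0533, limma), which met neither threshold and was not called. It was 1.06 in polyA libraries alone (adjusted p = 0.0464, limma). In the rescaled TPM, a scaling chosen after seeing the data, it was 1.10 (adjusted p = 0.0294, limma). With replicate number as a block CA9 was not called in this contrast. CA14 did not exceed 0.847 TPM and was too low to test.

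**Figure D5:**
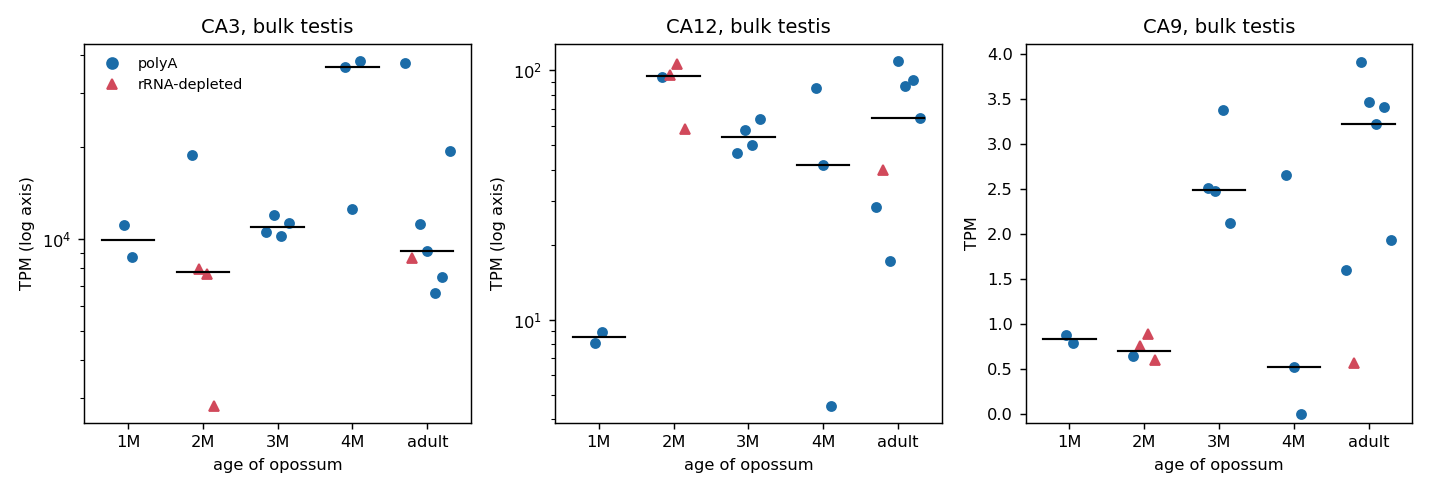
CA3, CA12 (log axes) and CA9 (linear axis) in each of the 20 opossum bulk libraries by age, as TPM; circles are polyA and triangles rRNA-depleted libraries, and bars are medians. CA12 lies below 9 TPM in both 1-month libraries and at 58.5 TPM or more in all 2-month libraries, while CA3 spans 2843 to 38114 TPM and its 3 libraries of 4 months lie at 12521 TPM or more.

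Over all 19300 genes tested, 11.1% were called from 1 to 2 months (7.22% higher, 3.88% lower) against 1 of 3 members, and 44.8% from 1 month to adult (29.4% higher, 15.4% lower) against 1 of 3 members. From 2 to 3 months 23.0% of genes were called (15.0% higher, 8.04% lower) and 0 of 2 members. From 3 to 4 months limma called 0 genes (0% of all, with 1686 at an unadjusted p under 0.05) and from 4 months to adult 5 genes (0.0259%), with 0 of 2 members in each. The contrasts share libraries, so their counts are not independent.

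Of the 5 other family genes tested in bulk, CA8 fell from 32.0 and 23.5 TPM at 1 month to 0.428 to 3.05 in adults (log2 difference -3.69 ± 0.50, adjusted p = 1.36e-05, limma). CA5B fell from 24.5 and 19.7 to 3.13 to 12.5 TPM (-1.75 ± 0.49, adjusted p = 0.00742; 0.0858 without 1-month replicate 1). From 2 to 3 months CA8 (-1.63 ± 0.57, adjusted p = 0.0443) and CA7 (-1.10 ± 0.37, adjusted p = 0.0405) were lower, calls that were lost under 15 and 13 of the alternative settings. The 15 stromal markers summed to 3657 and 2660 TPM at 1 month, 608 to 1759 at 2 months and 488 to 646 at 3 months. They summed to 1521, 319 and 933 TPM at 4 months and to 153 to 767 in adults. Their part in these differences was not tested. None of these 5 genes was called higher in any contrast.

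Of 25 transport genes tested, 3 rose from 1 to 2 months, 8 from 2 to 3 months and 12 from 1 month to adult, where 1 fell. Of all genes, 7.22%, 15.0% and 29.4% were called higher in these contrasts. Markers of spermatids were higher over the same ages: the 16 elongating-spermatid markers summed to 27.8 and 22.9 TPM at 1 month, 33.4 to 868 at 2 months, 6577 to 9781 at 3 months and 7834 to 27216 in adults, and their part in the counts and in the genes named next was not tested. Without 2-month replicate 1, the polyA library of that age, no list gene was called from 1 to 2 or from 2 to 3 months, and of all genes only 141 were called from 2 to 3 months. The median log2 difference of the list was 0.71, 0.92 and 1.22 in these contrasts, against 0.39, 0.24 and 0.59 over all genes. SLC4A3 was at 0 TPM in both 1-month libraries, at 0.0884 to 13.1 at 2 months and at 30.4 to 46.5 at 3 months (4.50 ± 1.07 from 2 to 3 months, adjusted p = 0.00745, limma). The sperm sodium-proton exchanger SLC9C1 went from at most 6.87 TPM at 2 months to 23.9 or more at 3 months (4.37 ± 0.96, adjusted p = 0.00506). SLC16A7 was the 1 gene that fell, from 2.35 and 3.39 TPM at 1 month to 0.233 to 0.963 in adults (-1.29 ± 0.23, adjusted p = 0.000191).

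The genes whose levels ran most like CA3 were found by correlation, as a description. Over the 27 class sums of the 3 opossum libraries, among 6312 genes, they were ACSL4 (Pearson r = 0.930) and ACSBG1 (0.903), both long-chain acyl-CoA synthetases, SDSL (0.900), MMP23B (0.877) and TP53I3 (0.875). Over the 16 polyA bulk libraries, among 6403 genes, they were TMEM100 (0.917), PRKAR1B, a regulatory subunit of protein kinase A (0.905), the superoxide dismutase SOD1 (0.897), the fatty-acid binding protein FABP5 (0.887) and LHFPL1 (0.869). No gene was in both lists, though LHFPL1 is also among the leading genes of Leydig-like clusters 2 and 14. For mouse Car2, over 23 class sums and 9298 genes, they were Tssk6 (0.980), Nudt16l2 (0.980), Spem1 (0.976), 1700009J07Rik (0.975) and Tppp2 (0.975), all highest in elongating spermatid-like cells. Spem1 and Tppp2 are among the markers used to name that class. Sums of 1 library share its depth, and bulk libraries share their age groups.

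An unnamed gene beside opossum CA3, ENSMODG00000025608 (chr3:145388377-145440937, minus strand), did not share its level. It lies on the side of CA3 away from CA1, as Car2 does in mouse, and whether it is one of the members not named in the opossum tables was not tested. It was at 0 to 23.4 TPM in bulk (median 8.36), at 16.2 to 25.3 CPM in Sertoli-like cells, at 10.7 to 24.1 CPM in endothelial-like cells and at most 2.86 CPM in the other classes. What it encodes is not given in the sources used here.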

How the data were processed

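The 6 genes, the gene lists and the tests were chosen with earlier results of these data known. Cell values are estimated counts that the authors deposited, mostly not whole; the step that made them so is not given in the sources used here. Cell Ranger 6.0.1 is named in the submitters' processing notes. The bulk tables hold TPM, FPKM and coverage per gene that the authors deposited; the notes name HISAT2 2.2.1, SAMtools 1.12 and StringTie 2.1.4, and only GRCm39, a mouse build.

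Barcodes under 1000 UMIs or 500 genes were dropped, and the 8% with the highest Scrublet doublet score per library were removed. They were clustered per species in scanpy 1.11.5 (2000 variable genes, 30 components, 8 neighbours per library, Leiden resolution 1), without carbonic anhydrases. A cluster was named from at least 3 markers, each at 1.5 times the level of the other cells. Class sums over at least 20 cells were rounded and tested with edgeR 4.0.16 (TMM factors). Bulk TPM was tested with limma 3.58.1 on log2(TPM + 1), for genes of at least 1 TPM in at least 2 of 20 libraries, with age and library kind as terms. Adjusted p-values are Benjamini-Hochberg over all genes tested. Both procedures were tested on simulated data. All 6 members were named; of the lists, up to 3 called genes in each direction and comparison; and the 5 genes most like CA3 or Car2 among those of at least 10 TPM or 50 CPM. Alternatives were DESeq2 1.42.0, other filters, scalings, UMI minimums, resolutions and library sets. No sequence is shown, since sequences of the opossum build were not used here.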

Additional observations from a re-analysis of the deposited data

Results flagged for a closer look

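In adult replicate 1, CA3 was at 37694 TPM, while the other 6 adult libraries ran from 6630 to 19301 TPM. Its gap to the nearest library was 0.592 of the group's range, above Dixon's critical value of 0.568 for 7 samples. CA14 was at 0.210 TPM in replicate 4 of 3 months and at 0 in the other 3 libraries of that age, a level near the lower limit of these tables. CA7 was at 9.52 TPM in replicate 1 of 2 months, the only polyA library of that age, and at 2.56 to 3.46 TPM in the other 3. Of 30 gene-by-age groups examined, chance would flag about 1 in 20.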

How the results depend on the processing

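No called member or other family gene reversed its direction under any alternative. Between species this is no support for CA3, CA9, CA12 and CA13, whose mouse values at or near 0 had largely fixed the direction. Directions of called transport genes were not compared between the alternatives. Between species, the counts of members called kept within 1.5 times the main count in spermatocyte-like, elongating spermatid-like, Sertoli-like and Leydig-like cells under all alternatives. Without the low-count filter 2 members were called in spermatogonia-like and 2 in stromal-like cells, and with DESeq2 2 in spermatogonia-like cells (main 1 each). With a UMI minimum of 2000 the counts were 0 in spermatogonia-like and 1 in round spermatid-like cells, and with Leiden resolution 2 0 in spermatogonia-like cells, where no member was left to test. Leaving out 1 library gave 1 to 2 members in stromal-like and 0 to 1 in immune-like cells.

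Of the family and transport lists, 7 genes were called in spermatogonia-like cells with a UMI minimum of 2000 or resolution 2 (main 15). In Sertoli-like cells (main 4) the count was 10 without the filter, 9 with DESeq2, 10 with a UMI minimum of 500, and 7 with counts rounded up or doublets kept. In Leydig-like cells (main 8) it was 17 without the filter and 14 with DESeq2, and in immune-like cells (main 5) 8 with a UMI minimum of 500. Leaving out 1 library gave 4 to 10 in Sertoli-like, 5 to 9 in stromal-like and 2 to 5 in immune-like cells. Over all genes, Sertoli-like calls (main 2480) were 3751 without the filter and 1507 with a UMI minimum of 2000, and immune-like calls (main 1470) 2623 with a UMI minimum of 500 and 2436 with doublets kept. Leaving out 1 library gave 1797 to 4323 and 540 to 1943.

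In bulk, members called from 1 to 2 months (main 1) were 0 in polyA libraries alone and 0 to 1 with 1 library left out. From 2 to 3 months (main 0) 1 was called without the library-kind term. From 1 month to adult (main 1), 2 were called in polyA libraries or rescaled TPM, and 0 to 2 with 1 library left out. List genes called from 1 to 2 months (main 3) were 0 in polyA libraries, 7 without the library-kind term and 0 to 4 with 1 library left out. From 2 to 3 months (main 10) they were 0 to 11, and from 1 month to adult (main 15) 9 to 17, with 1 library left out. All genes called from 1 to 2 months (main 2142) were 1074 in polyA libraries, 5156 without the library-kind term and 582 to 3111 with 1 library left out. From 2 to 3 months (main 4440) they were 141 to 5277, from 3 to 4 months (main 0) 0 to 33, from 4 months to adult (main 5) 2 to 61, and from 1 month to adult (main 8647) 5438 to 9926.

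Replicate numbers were not used to pair samples in the main fits. In single cells, same-numbered libraries of the 2 species had correlations of 0.0566, 0.191 and 0.208 in their deviations. Mouse replicate 1 ran closest to opossum replicate 2 (0.259), and the other pairs of unlike number ran from -0.259 to -0.00955. In bulk the median correlation was 0.000458 over 13 same-numbered pairs and 0.0025 over 67 others. Whether same-numbered libraries share a batch was not tested. With the replicate block, members called were 0 from 1 to 2 months and 0 from 1 month to adult, list genes 0 from 1 to 2 months and 6 from 2 to 3 months, and all genes 1006, 2804 and 0 from 1 to 2 months, 2 to 3 months and 4 months to adult. In single cells the block moved no count by over 1.5 times.

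Mean Car2 in elongating spermatid-like cells (main 880 CPM) was 1035 with a UMI minimum of 500, 1039 with 2000, 1012 at resolution 2 and 1027 with doublets kept. With a UMI minimum of 2000 Car2 was 519 CPM in Sertoli-like cells and 98.8% of their members' UMIs. CA12 in Sertoli-like cells (main 73.2 CPM) was 99.6 with a minimum of 500 and 89.9 with doublets kept. The median rank of CA3 was 4 at 2 months in polyA libraries alone and 4 in rescaled TPM (main 10), and 1 in adults in rescaled TPM (main 4). The rescaled TPM and the fits with doublets kept were added after seeing the data. The cause of these shifts was not tested. TPM holds no counts per gene, so the depth behind single bulk values is unknown, and only 2 libraries stand for 1 month.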
